A study of Mus musculus with 2 samples.

Results

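The let-7 family is the group of microRNAs (miRNAs, short RNAs that repress messenger RNAs) whose major strands begin with nearly the same bases. The 7 members described here are mmu-let-7a, mmu-let-7b, mmu-let-7d, mmu-let-7f, mmu-let-7g, mmu-let-7i and mmu-miR-98, where mmu stands for mouse and is left off below. They were taken by name from the 566 mouse miRNA names on the array, leaving aside let-7c and let-7e, which are used below for comparison. MiRNAs were measured on 1 Agilent miRNA array of total bone marrow ("total BM") and 1 array of LKS cells, both from C57BL/6J mice. LKS cells are the lineage-negative, Kit-positive and Sca1-positive part of the marrow, which holds blood stem cells and early progenitors. Per the labels they were enriched on magnetic columns and then sorted by flow cytometry, while the marrow sample was unfractionated. No age, sex, treatment or number of animals is given in the labels, and neither sample is labelled as carrying an engineered allele. Each group was a single array, without replicates. No p-value can therefore be given, and all differences describe these arrays alone.

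Let-7 was found in Caenorhabditis elegans as a switch of developmental timing, and the family is broadly expressed in differentiated mammalian cells. The RNA-binding proteins Lin28a and Lin28b block the maturation of let-7 precursors, and the family in turn represses Lin28b, Hmga2 and Myc messages. In mouse blood formation, the Lin28b, let-7 and Hmga2 axis is known for separating fetal from adult stem cell behaviour. Those messages were not measured here.

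The sequences show why the members are treated as 1 family and where a probe has to tell them apart. Mature sequences from RefSeq (GRCm38.p6) were found for all 7 members, and each is 22 bases long. They are written 5′ to 3′, with the seed, bases 2 to 8, in capitals.
let-7a: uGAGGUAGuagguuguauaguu
let-7b: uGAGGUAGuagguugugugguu
let-7d: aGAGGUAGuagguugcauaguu
let-7f: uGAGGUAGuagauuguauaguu
let-7g: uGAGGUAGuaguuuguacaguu
let-7i: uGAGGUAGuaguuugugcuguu
miR-98: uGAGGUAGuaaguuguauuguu
All 7 share the seed GAGGUAG, which 11 of 1679 mature names in the RefSeq table (0.655%) carry. Besides the 7, these are let-7c, let-7e, let-7k and miR-1961, of which the last pair was not analysed here. The members are identical at 15 positions and differ at 7. Counted from 1 at the 5′ end and with let-7a as the reference, let-7f differs by G12A, let-7b by A17G and A19G, let-7d by U1A and U16C, and miR-98 by G11A and A19U. Let-7g differs by G12U and U18C, and let-7i by these same changes plus A17G and A19U. Let-7a and let-7f, the closest pair, are thus separated by 1 base, and let-7d and let-7i, the most distant, by 6. Probe sequences were not used here, so how far each probe distinguishes such neighbours was not tested.

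The 7 mature miRNAs come from 9 hairpins on 5 chromosomes in the RefSeq table, all coordinates being GRCm38.p6. A cluster on the minus strand holds let-7a-1 (chr13:48538179-48538272), let-7f-1 (chr13:48537829-48537917) and let-7d (chr13:48536012-48536114), with 261 bases between the hairpins of let-7a-1 and let-7f-1 and 1714 between those of let-7f-1 and let-7d. Let-7b (chr15:85707319-85707403, plus strand) lies 621 bases from let-7c-2, inside the long non-coding RNA gene Lncppara. Let-7f-2 (chrX:151912346-151912428, plus strand) and miR-98 (chrX:151913214-151913321, plus strand) lie 785 bases apart inside the ubiquitin ligase gene Huwe1. The second let-7a copy, let-7a-2 (chr9:41536716-41536811, plus strand), lies 5211 bases from miR-100 inside the Mir100hg transcript. Let-7g (chr9:106178840-106178927, plus strand) is inside Wdr82, and let-7i (chr10:122985640-122985724, minus strand) has no other miRNA within 10 kb. Let-7a and let-7f each have 2 source hairpins with the same mature sequence, so their signals do not tell the loci apart.

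All 7 members were detected on both arrays, where 16.4% of the mouse miRNA names were. The values are background-subtracted total gene signals in linear intensity units, and the error after each ± is the technical error deposited with that signal, not an SD. Signals of different miRNAs come from different probes and do not rank the miRNAs by abundance.

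For 3 of the 7 members the deposited signals of the arrays were nearly equal. Let-7a, known in human cells for repressing MYC, read 472 ± 39.3 in total BM and 482 ± 40.4 in LKS cells. Let-7f, known in human endothelial cells for promoting vessel growth, read 375 ± 33.4 in total BM and 368 ± 33.1 in LKS cells. Let-7i, known in human bile duct cells for repressing TLR4, read 1145 ± 102 in total BM and 1041 ± 93.03 in LKS cells. These 3 members differed between the arrays by less than 1 combined error, the root of the summed squares of both errors.

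Let-7b and let-7d read higher in LKS cells before any scaling, by less than 2 combined errors. Let-7b, known in mouse neural stem cells for repressing Hmga2, read 440 ± 39.6 in total BM and 540 ± 48.9 in LKS cells, a gap of 1.59 combined errors. Let-7d, known in human lung epithelium for repressing HMGA2, read 386 ± 35.4 in total BM and 449 ± 41.2 in LKS cells, a gap of 1.14 combined errors.

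Let-7g and miR-98 read lower in LKS cells. Let-7g, whose hairpin lies inside Wdr82, read 507 ± 45.6 in total BM and 339 ± 30.6 in LKS cells. Its drop of 3.07 combined errors was the only one of the 7 unscaled differences above 2. MiR-98 was the faintest probe, with 20.7 ± 3.25 in total BM and 12.6 ± 2.88 in LKS cells, a gap of 1.87 combined errors. Its error was 15.7% of the signal in total BM and 22.8% in LKS cells, against 8.33% to 9.18% for the other 6 members.

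**Figure D1:**
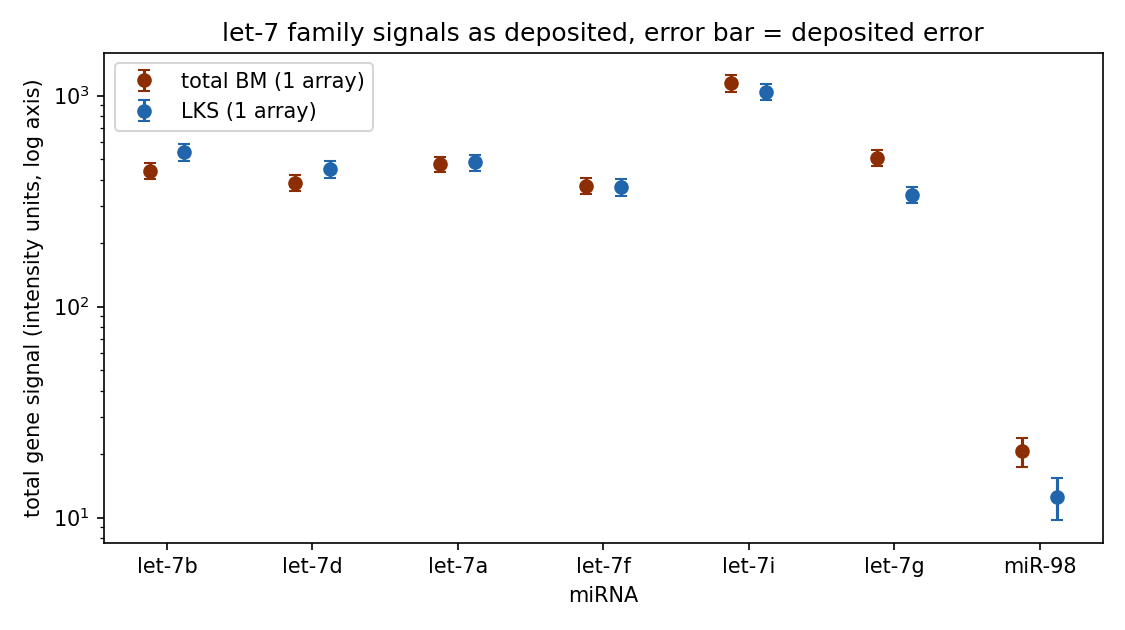
Total gene signal (intensity units, log axis) of each let-7 family member on the total BM array and the LKS array, with the deposited technical error as the bar. Let-7a, let-7d, let-7f and let-7i overlap within their errors, let-7g is lower in LKS cells (339 against 507), and the heights of different miRNAs are not comparable.

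The LKS array was dimmer as a whole, which sets the frame for these signals. It detected 98 of 566 mouse miRNAs, with detected signals summing to 23256 units, against 145 and 52484 units on total BM. Of all mouse names, 92.6% had a lower signal on the LKS array, but 421 of the names were undetected on total BM and 468 on LKS. Among the 93 miRNAs detected on both, the median log2 ratio was -0.65, and 23.7% had a higher signal on LKS. Lists of cell-type markers were compared as well. They were chosen with earlier results of these data known, so they describe the arrays and cannot independently check the labels. The 6 stem and progenitor markers summed to 91.04 units in total BM and 644 in LKS cells, each being higher in the latter. The 3 erythroid markers (miR-451, miR-144 and miR-486) summed to 309.6 units in total BM and -10.6 in LKS cells, where none was detected, and miR-223, a neutrophil marker, read 7250 against 822. Both mature lymphoid markers read lower in LKS cells, summing to 34.8 units against 332. None of the 5 stroma and 4 muscle, liver and neuron markers was detected on either array. In such bulk RNA, fewer cells of a type and less RNA per cell cannot be told apart, and the part of mature cells in the let-7 ratios was not tested.

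For ratios, each signal was divided by its array's 75th percentile over those 93 miRNAs, 399 on total BM and 242 on LKS, which raised every log2 ratio of LKS over total BM by 0.72. After this scaling all 7 members had a ratio above 0, as did 53.8% of the 93 miRNAs. Without scaling 3 did (let-7a, let-7b and let-7d), against 23.7%. The 4 members let-7f, let-7i, let-7g and miR-98 turned below 0 without scaling. Of these, let-7i, let-7g and miR-98 were also below 0 in the authors' deposited value table, and let-7g and miR-98 when arrays were scaled on probes with no miRNA identifier. Let-7g was at 0 under quantile normalization. The ratio was therefore above 0 for let-7a, let-7b and let-7d in all 10 settings, and the level of every ratio depended on the scaling. Without scaling, let-7a (0.030), let-7f (-0.025) and let-7i (-0.14) lay within their technical errors of 0.17 to 0.18, so their signs were not resolved.

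Let-7b had the highest scaled ratio of the members, with a log2 ratio of 1.02 ± 0.18 (the error propagated from both signals), or 2.03-fold. Let-7d followed at 0.94 ± 0.19 (1.92-fold) and let-7a at 0.75 ± 0.17 (1.69-fold). Let-7f was at 0.70 ± 0.18 (1.62-fold) and let-7i at 0.59 ± 0.18 (1.501-fold). At the lower end, let-7g was at 0.14 ± 0.18 and miR-98 at 0.0046 ± 0.40. Let-7b (mmu-let-7b on the array) alone passed 2-fold, by less than its error, so 1 of 7 members (14.3%) was called higher where 18.3% of the 93 miRNAs were. No member was called at least 2-fold lower, against 18.3% of the 93. With this scaling the counts of 2-fold calls thus do not set the members apart from other miRNAs on these arrays. Under other scalings, given below, both the member counts and the shares of the 93 changed.

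**Figure D2:**
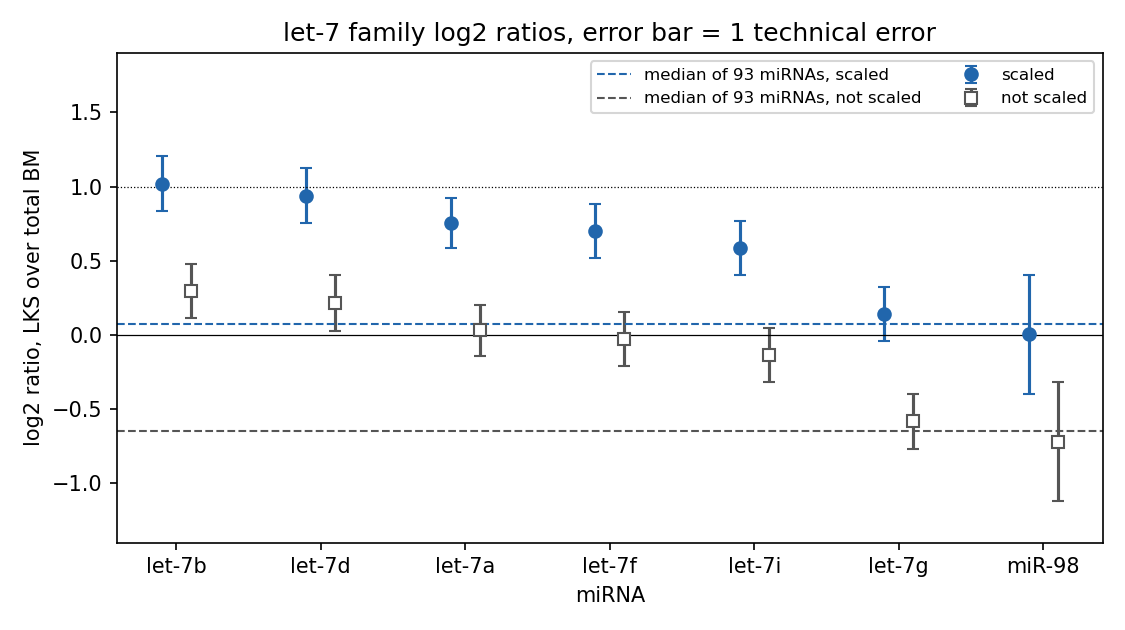
Log2 ratio of LKS over total BM for each member, scaled (filled) and not scaled (open), with 1 propagated technical error as the bar and the median of the 93 shared miRNAs as dashed lines. Scaling moves all members by the same 0.72, and let-7b to let-7i lie above the median of the 93 in either form.

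Set against the other miRNAs, which does not depend on a common scaling factor, 6 of 7 members had a ratio above the median of the 93 miRNAs. By definition 49.5% of the 93 lie above it. The median log2 ratio of the members was 0.70 and that of the 93 was 0.07, and without the let-7 family the latter was -0.00070. From the highest of the 93 ratios, let-7b ranked 17, let-7d 19, let-7a 22, let-7f 23 and let-7i 28, whereas let-7g ranked 42 and miR-98 ranked 50. The members spanned 1.01 on the log2 scale, with an SD among them of 0.38, where all 93 ratios had an SD of 1.65. They have closely related sequences and partly share a transcript, so they are not independent observations of the family.

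**Figure D3:**
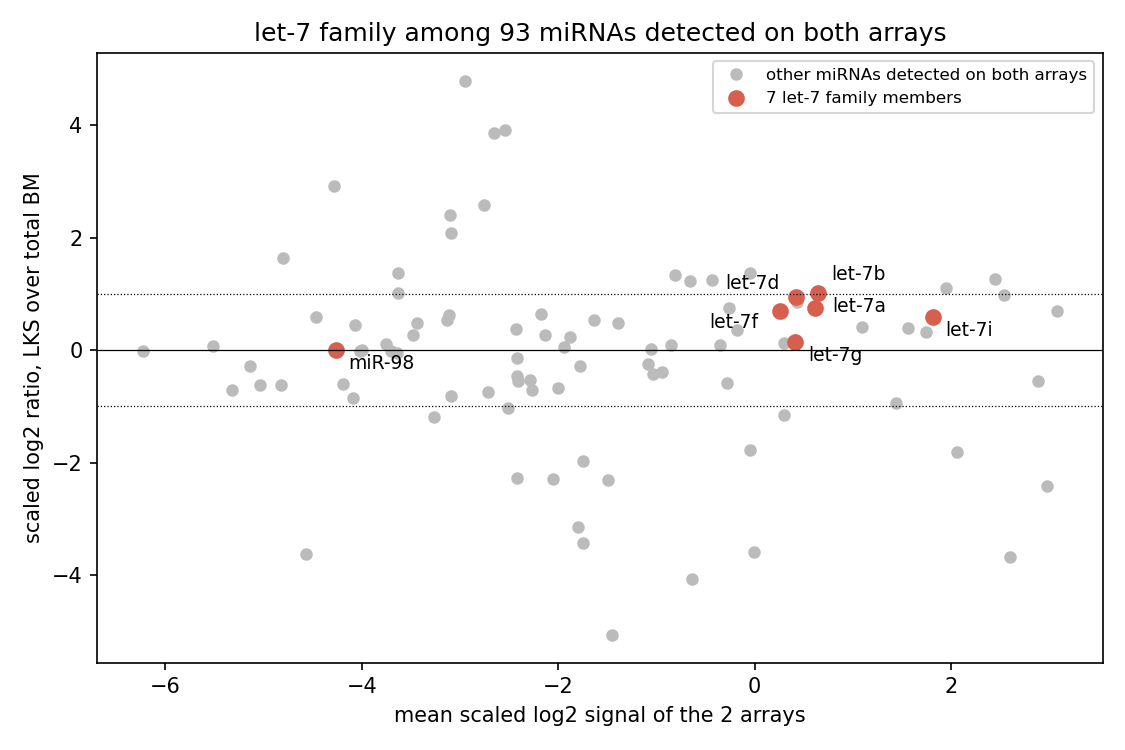
Scaled log2 ratio of LKS over total BM (vertical axis) against the mean scaled log2 signal of the arrays (horizontal axis) for the 93 miRNAs detected on both, with the 7 members in red and dotted lines at 2-fold. Let-7b sits at the upper line at 1.02, let-7g and miR-98 near 0, and no member approaches the extremes of the other miRNAs.

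A common factor for an array cancels when 1 member's ratio is set against another's. In descending order of ratio, neighbouring members differed by 0.06 to 0.44 on the log2 scale, and no neighbouring pair by more than 1.72 combined errors (let-7i over let-7g). Of all 21 pairs, 6 differed by more than 2 combined errors, and each of these pairs had let-7g or miR-98 as its lower member. Let-7b exceeded let-7g by 0.88 ± 0.26, or 3.37 combined errors. Let-7g was also exceeded by let-7d (by 0.80 ± 0.26), by let-7a (by 0.61 ± 0.25) and by let-7f (by 0.56 ± 0.26). The other 2 pairs were let-7b over miR-98, by 1.01 ± 0.44, and let-7d over miR-98, by 0.93 ± 0.44. Among let-7a, let-7b, let-7d, let-7f and let-7i, the 10 pairs differed by at most 0.43, or 1.67 combined errors. With 1 array a group, whether such gaps recur between animals was not tested.

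**Figure D4:**
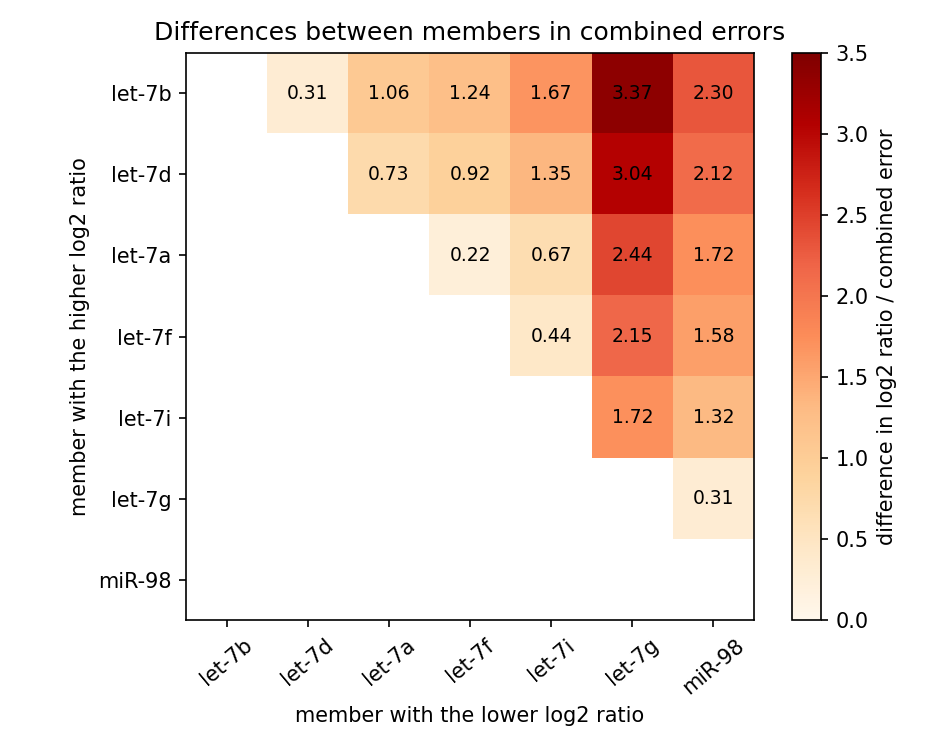
Difference in scaled log2 ratio between each pair of members, divided by its combined technical error, with the member of the higher ratio on the vertical axis and of the lower ratio on the horizontal axis. The column of let-7g holds the highest values, up to 3.37, and pairs among the 5 members above it stay at or below 1.67.

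The low ratio of miR-98 relative to the others rested on faint signals. With the background of each array recentred on its undetected miRNAs, miR-98 was at 0.31 and stood above let-7g at 0.13, and the excess of let-7b over miR-98 ranged from 0.63 to 1.01 over the 10 settings. The excess of let-7b over let-7g stayed between 0.87 and 1.26 in the same settings. Let-7b had the highest ratio in all 10 settings, and miR-98 the lowest in 7. Those 7 apply at most a common factor to each array, so the order of members in them is the same by construction. In the settings that can change the order, let-7g was lowest: the deposited value table, quantile normalization and the recentred background.

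Members of a shared cluster were compared next. In the chr13 cluster, the ratios of let-7d, let-7a and let-7f lay between 0.70 and 0.94 and differed by at most 0.92 combined errors. On the X chromosome, let-7f exceeded its cluster partner miR-98 by 0.69 ± 0.44, or 1.58 combined errors, with let-7f also drawn from the chr13 copy. On chromosome 15, let-7b stood beside let-7c, which read 241 ± 22.3 in total BM and 376 ± 34.4 in LKS cells and had a log2 ratio of 1.37 ± 0.19. The let-7c signal also pools a hairpin on chromosome 16, outside this cluster. Let-7c exceeded let-7b by 0.35 ± 0.26, or 1.32 combined errors, and let-7a by 0.61 ± 0.25. Let-7e was detected in LKS cells only, with 40.2 ± 4.85 against 1.30 ± 2.87 in total BM.

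The let-7a-2 hairpin lies in the Mir100hg transcript, known as the host of miR-100, of the miR-99 family, and of a miR-125b copy. MiR-100 was detected on neither array, with -2.73 ± 2.85 in total BM and -2.13 ± 2.71 in LKS cells. MiR-125b-5p, known for expanding blood progenitors when overexpressed, read 0.116 ± 2.86 in total BM and 26.7 ± 3.95 in LKS cells. It was detected in the latter only, and its signal also pools a hairpin on chromosome 16, outside this locus. The partners of let-7c and let-7e were mixed: miR-99a read 17.6 ± 3.37 in total BM and 161 ± 15.4 in LKS cells, miR-99b was detected on neither array, and miR-125a-5p read -1.31 ± 2.85 and 5.43 ± 2.80. The let-7a signal, which pools the let-7a-1 and let-7a-2 hairpins, read 472 ± 39.3 in total BM and 482 ± 40.4 in LKS cells before scaling. After scaling it was 1.69-fold higher in LKS cells.

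Base differences and ratio differences were set side by side across the 21 pairs, which share members and are not independent. The 1 pair separated by a single base, let-7a and let-7f, differed in ratio by 0.06. The 6 pairs separated by 2 bases differed by 0.19 to 0.75, the 5 pairs at 3 bases by 0.24 to 1.01, and the 8 pairs at 4 bases by 0.08 to 0.93. Let-7d and let-7i, 6 bases apart, differed by 0.35. Ratio differences thus did not increase steadily with the number of differing bases. Let-7g and let-7i, the members that carry G12U and U18C, had lower ratios (0.14 and 0.59) than let-7a, let-7b, let-7d and let-7f (0.70 to 1.02), and let-7i differed from each of these 4 by under 2 combined errors. MiR-98, which carries neither change, had the lowest ratio of the 7 with the main scaling (0.0046 ± 0.40), a value that rests on faint signals.

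MiRNAs with a related start behaved in their own ways. MiR-202-3p carries the seed GAGGUAU, close to the GAGGUAG of let-7. It read 125 ± 9.44 in total BM and 47.8 ± 4.41 in LKS cells, for a scaled log2 ratio of -0.66 ± 0.17. Let-7a exceeded it by 1.42 ± 0.24, or 5.85 combined errors. MiR-196b, a Hox cluster miRNA with the seed AGGUAGU, had a ratio of 4.79 ± 0.46, and miR-196a was detected on neither array.

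The minor strands of the family gave little signal. Of the 7 passenger strands on the array (let-7a*, let-7b*, let-7c-1*, let-7d*, let-7f*, let-7g* and let-7i*), the total BM array called 0 detected and the LKS array 0. Their signals ran from -3.52 to 10.3 in total BM and from -6.13 to 5.42 in LKS cells, and all 7 were lower in LKS cells, as were 92.6% of all mouse names. The highest were let-7f* at 10.3 ± 2.08 and 5.42 ± 1.93, and let-7b* at 8.62 ± 2.06 and 4.07 ± 1.93, in total BM and LKS cells respectively.

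Outside the family, the 5 miRNAs whose scaled log2 ratio lay nearest the members' median of 0.70 were miR-720 at 0.69, miR-23b at 0.65, miR-130b at 0.75, miR-128 at 0.64 and miR-151-5p at 0.59. The likeness was measured as the difference in that 1 ratio between the arrays, at most 0.11 for these 5. The technical errors of the 5 ratios, 0.17 (miR-720) to 0.45 (miR-151-5p), were larger, and 2 arrays allow no finer measure.

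The scaling itself was partly set by the family, since 8 of the 93 miRNAs were let-7 members or let-7c. With the family left out, the 75th percentile fell to 340 on total BM and to 164 on LKS, and every log2 ratio rose by a further 0.33. Let-7b, let-7d, let-7a and let-7f were then at least 2-fold higher, 4 of 7 members against 25.8% of the 93 miRNAs. The counts under the other scalings are given with the share of all 93 called in the same way. No member was 2-fold higher without scaling or in the deposited value table, where 7.53% of the 93 were, nor with scaling on probes that carry no miRNA identifier, where 15.1% were. Quantile normalization gave 2 members against 31.2%, median scaling 3 against 23.7%, and scaling on the summed detected signal 5 against 30.1%. The percentile of all mouse miRNAs gave all 7 members, but also 82.8% of the 93. With the main scaling, 5 members reached 1.5-fold against 30.1%, and none reached 4-fold against 7.53%.

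**Figure D5:**
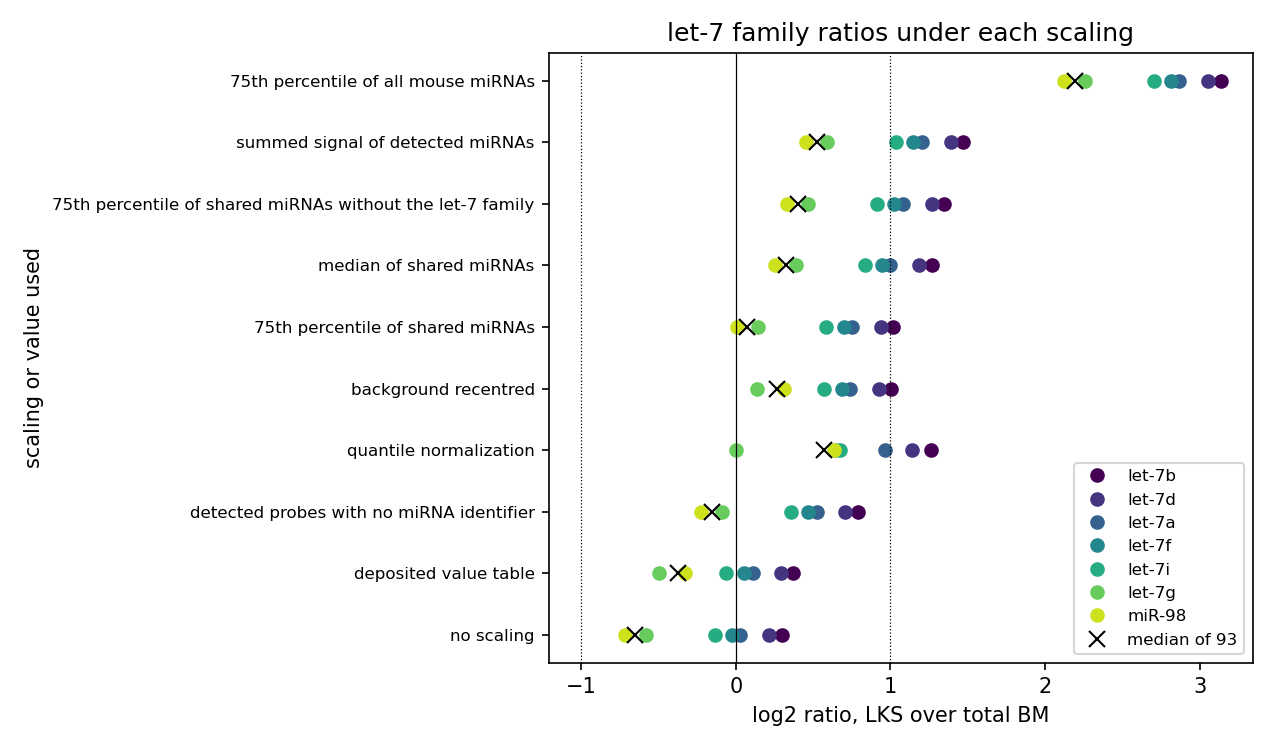
Log2 ratio of LKS over total BM (horizontal axis) for each member under the 10 scalings or value sets (vertical axis), with the median of the 93 shared miRNAs as a cross and dotted lines at 2-fold. The group slides along the axis from one scaling to the next, let-7b stays highest, and in each row 1 member lies below the cross, namely let-7g in the deposited values, under quantile normalization and with the recentred background, and miR-98 in the other 7. Those 7 rows differ by a common factor only, so the order of members in them is the same by construction.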

How the data were processed

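The authors deposited a table of linear intensity values for 598 probe names: per the file headers, a total gene signal, its error (also in intensity units) and a detection call of 0 or 1 for each array. The signals were background-subtracted, since 315 of 566 mouse names on total BM and 406 on LKS lay below 0. No scaling between arrays is stated in the headers or labels, and the arrays differed in summed detected signal (52484 and 23256 units). A second deposited table holds log2-like values, which were fitted from each array's signal by an inverse hyperbolic sine with free offset and slope, on the log2 scale plus a constant, with residuals up to 4e-09; its column medians were 1.46 (total BM) and 0.998 (LKS). The origin of its constants and centring, the scanner, the extraction software and the detection rule are not named in those sources. Per the labels' protocols, RNA was extracted with miRNeasy and labelled with Cy3.

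Signals were scaled to the 75th percentile of the 93 mouse miRNAs detected on both arrays, and a ratio of 2-fold was the mark for a call. Errors were propagated from the deposited errors, taken as independent, and a gap above 2 combined errors was marked. The number of arrays limits the precision. Functions were tested on simulated data. The members, lists and rules were chosen with earlier results of these data known. Named miRNAs were the 7 members, let-7c, let-7e, the passenger strands, cluster partners, miR-202-3p, miR-196a, miR-196b, and the 5 nearest in ratio. All 7 members were matched to RefSeq sequences by name. Alternatives were other scalings, the deposited values, recentred background, other thresholds and the inclusion of let-7c. Python 3.11.15 with numpy 2.4.6, pandas 2.3.3 and matplotlib 3.10.9 was used.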

Additional observations from a re-analysis of the deposited data

How the results depend on the processing

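No paired analysis was possible because the groups are single arrays, which also leaves none to omit in turn. The main values were 1 member at least 2-fold higher, 0 lower, a median log2 ratio of 0.70 and a range of 1.01. No scaling gave 0 higher and a median of -0.025, the only median below 0 among the alternatives. The deposited values gave 0 and 0.056, and scaling on probes with no miRNA identifier gave 0 and 0.47. Median scaling gave 3 and 0.95, the percentile without the family 4 and 1.03, and quantile normalization 2 higher. Scaling on the summed detected signal, an alternative chosen after seeing the data, gave 5 and 1.15. The percentile of all mouse miRNAs, 1.12 on LKS, gave 7 and 2.81, with 82.8% of the 93 miRNAs called higher too. Thresholds of 1.5-fold and 4-fold gave 5 and 0 higher. The range was 1.26 under quantile normalization, 0.87 with the deposited values or the recentred background, and 1.01 under the other scalings. With let-7c included, the median was 0.73 and the range 1.36. The members' median exceeded that of the 93 miRNAs in all 10 settings. Settings that apply a common factor to each array leave this excess at 0.62 by construction and are not separate checks. The excess was 0.11 under quantile normalization, and between these values with the deposited values or the recentred background. Of 63 single-member values, 49 moved by more than their technical error and 14 did not. Alternatives that apply a common factor shift all members by the same amount, so these values are not independent of each other. Signal over background limits miR-98 and all passenger strands.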

Other observations

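The detection call was not a fixed multiple of the deposited error, which bears on the passenger strands. In total BM, let-7f* lay 4.95 errors above 0 and let-7b* 4.18, and neither was called detected. Let-7f* had the highest signal in errors of the 421 undetected mouse names on that array, of which 3 exceeded 4 errors. Among detected names on the same array, 14 lay under 4 errors, down to 0.491 errors for miR-711. On the LKS array let-7f* lay at 2.80 errors and let-7b* at 2.11, and 12 detected names lay under 4 errors, the lowest being miR-674* at 1.42. The statement that 0 of 7 passenger strands were detected therefore rests on the deposited call, whose rule the headers and labels do not state.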
